A study of Mus musculus with 24 samples.

Results

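The clustered protocadherins are a family of adhesion molecules of the nerve cell surface whose genes lie in 3 neighbouring clusters. Members were the protein-coding genes whose mouse symbols start with Pcdha, Pcdhb or Pcdhg followed by a subtype letter or number. This rule goes by name and uses no measured value, but it was chosen with earlier results of these data known. It gave 57 members among the 50686 genes counted: 14 in the alpha cluster, 22 in the beta cluster and 21 in the gamma cluster. On GRCm38 they lie on the plus strand of chromosome 18, the alpha cluster from 36930184 to 37187661, the beta cluster from 37264938 to 37524479 and the gamma cluster from 37661793 to 37841873. The libraries are stranded mRNA sequencing of C57BL/6 mouse brain, taken from females and males at day 10 and day 20; the tissue label reads back left brain. The knockout mice were Pank1-/-Syn-Pank2-/- double knockouts (dKO) and the controls were wild type (WT). The labels do not say what Syn stands for or which cells lose Pank2. The series presents the dKO as a model of pantothenate kinase-associated neurodegeneration, and its design asks how knockout and control differ at each day in each sex.

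Each alpha or gamma gene has a variable exon with its own promoter, which is spliced to constant exons shared by the whole cluster, whereas most beta genes consist of a single coding exon. The proteins bind their own kind between cells, and the choice of isoforms in a neuron gives it a surface identity that serves self-recognition of its dendrites and axons. The choice depends on CTCF, cohesin and DNA methylation at the promoters. The C-type genes, Pcdhac1 and Pcdhac2 at the end of the alpha cluster and Pcdhgc3, Pcdhgc4 and Pcdhgc5 at the end of the gamma cluster, are set apart in sequence and are expressed more uniformly among neurons. Pcdhgc4 is the gamma isoform tied to neuronal survival.

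There were 24 libraries, 3 for each combination of genotype, sex and day. Levels and tests used the 23 libraries with at least 1000000 gene counts, which held 9.19 to 44.7 M each. The remaining one, dKO male day 10 replicate 3, held 45964 and was left out, so that dKO at day 10 has 5 libraries. Levels are in CPM, gene counts scaled to a library total of 1000000 with TMM factors. Pank1 was 20.99 to 24.7 CPM in WT and 7.17 to 8.87 CPM in dKO at day 10, and 19.5 to 26.7 CPM against 6.71 to 8.12 CPM at day 20, with no overlap. Pank2 overlapped at day 10 (46.3 to 56.3 CPM in WT, 44.6 to 52.1 CPM in dKO) and did not at day 20 (52.6 to 61.3 CPM in WT, 38.5 to 46.3 CPM in dKO). Summed markers at day 20 in WT were 6287 to 6666 CPM for neurons, 4990 to 5276 CPM for astrocytes and 4054 to 5618 CPM for cerebellar granule and Purkinje cells. The library dKO male day 10 replicate 2 stood apart from the other day 10 libraries. Its summed granule and Purkinje cell markers were 1001 CPM against 1737 to 5374 CPM in the others, its choroid plexus markers 219 CPM against 558 to 1139 CPM, and its immature neuron markers 1094 CPM against 1631 to 2628 CPM. Its serotonergic markers were 169.7 CPM against 27.7 to 71.6 CPM. Member results over both sexes at day 10 are therefore given with and without it. The labels do not say that the libraries of a group came from separate animals, and the spread behind each p-value may therefore be technical.

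Levels of different genes were compared as CPM per kb of exon that no other gene shares, since the constant exons of the alpha and gamma clusters are shared by many members. Neighbouring members are similar in sequence, and reads from near-identical stretches may have been lost or misassigned, which makes levels of single members uncertain. Over the 23 libraries Pcdhgc3 had the highest level of the family, 37.6 CPM per kb (25.3 to 43.7). Pcdhgc4 (13.6 CPM per kb, 8.83 to 26.6) and Pcdhac2 (13.6 CPM per kb, 11.9 to 15.8) followed. Pcdhgc4 and Pcdhac2 did not differ from each other beyond their spread. The other C-type genes did not share this rank: Pcdhac1 was at 2.90 CPM per kb and Pcdhgc5 at 3.03 CPM per kb, among the lower members of the gamma cluster. The median member was at 2.59 CPM per kb in the alpha cluster, 2.88 CPM per kb in the beta cluster and 5.74 CPM per kb in the gamma cluster.

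Within the alpha cluster Pcdha12 (4.19 CPM per kb) and Pcdha9 (3.69 CPM per kb) followed Pcdhac2, and the lowest were Pcdha3 (2.05 CPM per kb), Pcdha4 (1.06 CPM per kb) and Pcdha1 (0.688 CPM per kb). Pcdha4 has 494 bases of exon of its own and gave 4 to 26 counts per library, and Pcdha1 gave 18 to 81 counts. In the beta cluster the highest were Pcdhb17 (5.88 CPM per kb), Pcdhb16 (5.52 CPM per kb) and Pcdhb19 (4.49 CPM per kb), which lie towards the 3' end of the cluster. The lowest were Pcdhb3 (1.23 CPM per kb), Pcdhb2 (1.17 CPM per kb) and Pcdhb1 (0.0882 CPM per kb) at its 5' end. Pcdhb1 gave 1 to 14 counts per library and was the 1 member that failed the low-count filter, so 56 members were tested. In the gamma cluster Pcdhgb6 (8.83 CPM per kb) came after Pcdhgc3 and Pcdhgc4, and Pcdhga1 (2.12 CPM per kb) was the lowest, with Pcdhgb1 at 3.73 CPM per kb.

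**Figure D1:**
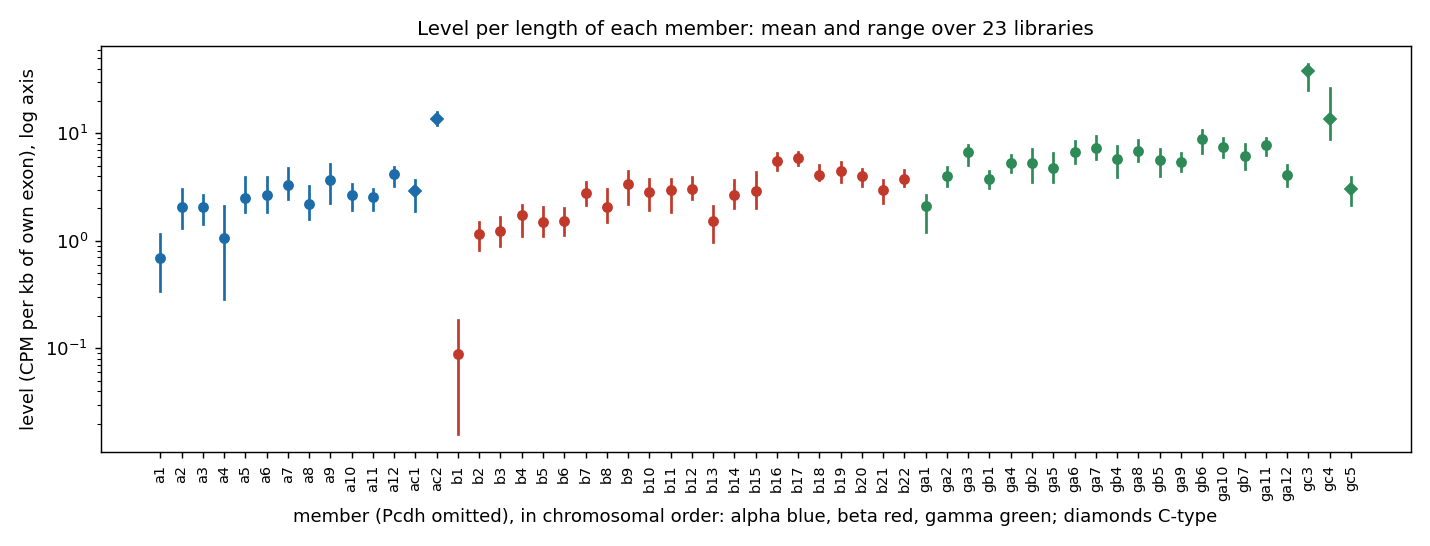
Level of each member in CPM per kb of its own exon (log axis), in chromosomal order; points are means and lines the range over 23 libraries, with diamonds for C-type genes. Pcdhgc3 stands at 37.6 CPM per kb, Pcdhgc4 and Pcdhac2 both at 13.6 CPM per kb, and Pcdhb1 lies lowest at 0.0882 CPM per kb.

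The comparison of dKO with WT at day 20 gave higher levels across the beta cluster. Of its 21 tested members 15 rose and 0 fell, and the log2 change was above 0 for 21 of 21, with a median of 0.30 (0.07 to 0.43) beside a median of 0.00 over all 21657 genes tested. Over all genes 19.4% were called higher and 19.5% lower at this day (edgeR's quasi-likelihood test, adjusted p under 0.05). Of the 14 alpha members 1 rose and of the 21 gamma members 2 rose, and 0 of either fell. The count in the beta cluster was thus above the share of all genes called higher. In the gamma and alpha clusters it was below that share by a few genes only. No test compared the clusters. DESeq2 and limma-voom each called 15 beta members higher, and leaving out single libraries gave 12 to 16. In the gamma cluster limma-voom called 1 member higher and 1 lower.

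Pcdhb15 was at 7.02, 7.66 and 8.93 CPM in WT (lowest, median and highest of 6 libraries) and at 8.999, 10.1 and 12.2 CPM in dKO. Every dKO library lay above every WT library. The log2 change of Pcdhb15 was 0.43 ± 0.10 (SE), a fold of 1.34, with an adjusted p of 0.00118 (edgeR). Pcdhb14, the member with the longest exon sequence of its own, was at 20.6, 22.8 and 23.95 CPM in WT and at 24.6, 26.8 and 31.7 CPM in dKO, also without overlap. It rose by 0.29 ± 0.07 (edgeR, adjusted p = 0.00189). Pcdhb18 was at 18.5, 19.9 and 20.3 CPM in WT and 21.1, 23.03 and 25.6 CPM in dKO, again with the groups apart. It rose by 0.26 ± 0.06 (edgeR, adjusted p = 0.00218). These 3 of 21 beta members, 0 of 14 alpha members and 0 of 21 gamma members had every dKO library above every WT library, against 9.79% of all genes tested, and 0 members had every dKO library below, against 10.3%.

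The other beta members named here overlapped between the groups. Pcdhb21 was at 9.55, 11.03 and 12.3 CPM in WT and 11.5, 13.0 and 15.7 CPM in dKO, a log2 change of 0.30 ± 0.07 (edgeR, adjusted p = 0.00177). Pcdhb11 was at 8.20, 10.7 and 13.6 CPM in WT and 12.5, 13.8 and 14.8 CPM in dKO. The 3 WT males gave its 3 lowest values, and the log2 change was 0.33 ± 0.08 (edgeR, adjusted p = 0.00252). Pcdhb8 was at 5.17, 5.54 and 6.25 CPM in WT and 5.46, 7.80 and 8.56 CPM in dKO, with 1 dKO female inside the WT range, and rose by 0.43 ± 0.11 (edgeR, adjusted p = 0.00312). Pcdhb4, Pcdhb19 and Pcdhb2 also rose, by 0.35, 0.19 and 0.34 on the log2 scale. The 6 beta members that were not called included Pcdhb3 at 0.23 ± 0.12, Pcdhb7 at 0.17 ± 0.10 and the pair with the highest level per length, Pcdhb16 and Pcdhb17, at 0.10 ± 0.07 and 0.07 ± 0.05.

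Summed over its 22 members, the beta cluster was at 232.8, 259.0 and 267.9 CPM in WT at day 20 and at 277.2, 299.6 and 324.0 CPM in dKO. The 6 dKO libraries lay above the 6 WT libraries, and the mean was 17.1% higher. The alpha sum was 111.7, 121.5 and 132.1 CPM in WT and 107.2, 122.9 and 127.6 CPM in dKO, and the gamma sum 451.8, 514.2 and 532.0 CPM in WT and 431.0, 504.9 and 573.6 CPM in dKO. Both overlapped between genotypes, with means 0.586% and 1.84% higher in dKO. The ratio of the beta to the gamma sum within a library, which does not depend on how libraries are scaled, was 0.492 to 0.582 in WT and 0.545 to 0.677 in dKO, with overlap. The ratio of the beta to the alpha sum was 1.94 to 2.34 in WT and 2.27 to 2.72 in dKO. At day 10 the ratio of beta to gamma was 0.528 to 0.615 in WT and 0.607 to 0.685 in dKO, also overlapping, and the means were 0.562 and 0.642 beside 0.517 and 0.595 at day 20. The ratio of the gamma to the alpha sum was 3.721 to 4.21 in WT and 3.28 to 3.717 in dKO at day 10, without overlap by a narrow margin, and 3.87 to 4.34 and 3.94 to 4.68 at day 20. The sums and ratios are given as a description, with no test.

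**Figure D2:**
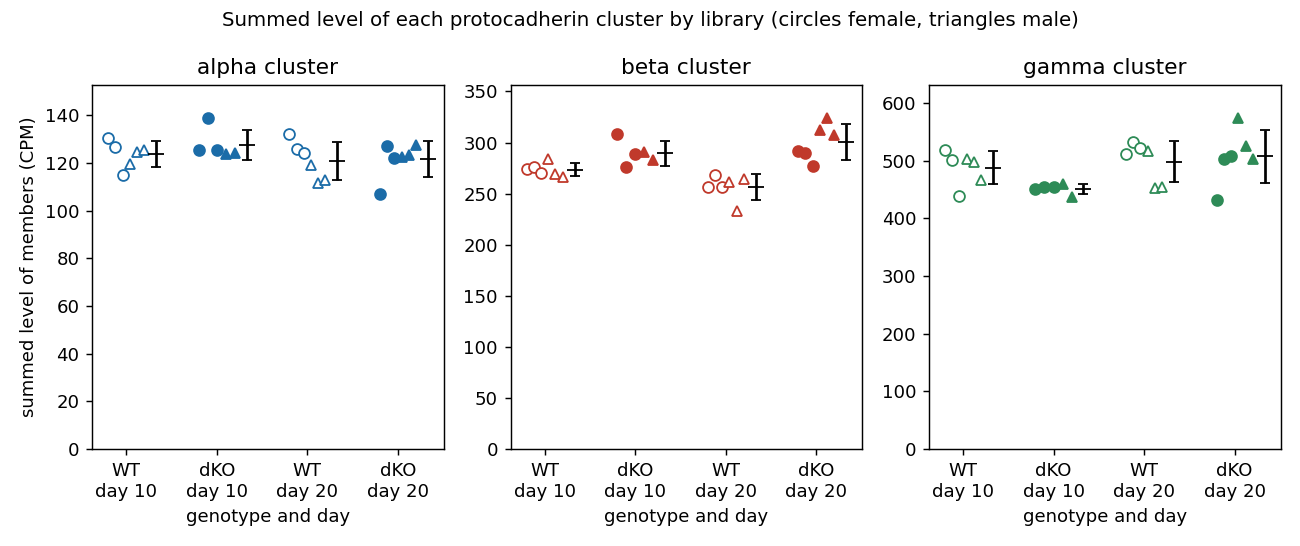
Summed level of the members of each cluster (CPM) by library; circles are females, triangles males, open symbols WT and filled symbols dKO, with the mean and SD beside each group. At day 20 the beta sum is 232.8 to 267.9 CPM in WT and 277.2 to 324.0 CPM in dKO, while the alpha and gamma sums overlap.

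In the alpha cluster Pcdha1, the most 5' member, rose at day 20. It was at 1.04, 1.35 and 1.64 CPM in WT and 1.49, 2.15 and 2.85 CPM in dKO, with 5 of 6 dKO libraries above the WT range. The log2 change of 0.66 ± 0.19 (edgeR, adjusted p = 0.0101) was the greatest among the 56 tested members at this day, in a gene with one of the lowest levels. Pcdha3 was at 0.26 ± 0.12 (edgeR, adjusted p = 0.0842), and the C-type genes Pcdhac1 and Pcdhac2 were at -0.22 ± 0.11 (adjusted p = 0.124) and -0.02 ± 0.05 (adjusted p = 0.737). The alpha members had a median log2 change of 0.03, with 8 above and 6 below 0.

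In the gamma cluster the 2 members that rose were Pcdhga2 and Pcdhgc4. Pcdhga2 was at 8.59, 9.12 and 10.5 CPM in WT and 10.2, 11.2 and 12.4 CPM in dKO, a log2 change of 0.29 ± 0.09 (edgeR, adjusted p = 0.0177). Pcdhgc4 was at 30.7, 34.2 and 36.4 CPM in WT and 35.6, 41.2 and 44.8 CPM in dKO. Of its 6 dKO libraries 5 lay above the WT range. Pcdhgc4 rose by 0.28 ± 0.10 (edgeR, adjusted p = 0.0419), and the call was lost in 13 of 32 alternative fits, with adjusted p up to 0.098. Pcdhgc3 and Pcdhgc5 were at 0.08 ± 0.08 and 0.05 ± 0.08. Pcdhga1, which adjoins Pcdhga2 at the 5' end of the cluster, was at -0.30 ± 0.12 (edgeR, adjusted p = 0.0571). The 21 gamma members had a median log2 change of -0.04.

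Some whole-library measures were apart between genotypes at day 20, and others overlapped. Of the markers tested, 4 of 14 for oligodendrocytes, 5 of 10 for choroid plexus, 7 of 12 for endothelial and mural cells and 8 of 11 for microglia fell, and 1, 0, 1 and 0 rose, where 19.4% of all genes were called higher and 19.5% lower. Summed oligodendrocyte markers were 16062 to 20848 CPM in WT and 12310 to 15760 CPM in dKO, choroid plexus markers 1183 to 1504 CPM and 486 to 888 CPM, and endothelial and mural markers 462 to 495 CPM and 325 to 389 CPM. Summed neuronal markers, which include the transmitter genes Slc17a6, Slc17a7, Gad1 and Gad2, were 6287 to 6666 CPM in WT and 5463 to 6400 CPM in dKO. Of these 14 markers 0 rose and 2 fell, Tubb3 by 0.44 and Syt1 by 0.16 on the log2 scale. The number that fell is near the share of all genes that fell and is no result about the list. The median log2 change of the 14 markers was -0.13. Of 11 astrocyte markers 4 rose and 3 fell, against the same shares of all genes. Their sums were 4990 to 5276 CPM in WT and 4453 to 5048 CPM in dKO, with overlap. Counts on the strand opposite to genes were 6.04 to 7.46% of sense counts in WT and 5.33 to 6.12% in dKO, also with overlap. At day 10 these counts were 5.66 to 6.25% in WT and 5.22 to 5.44% in dKO, without overlap. The part of these measures in the protocadherin changes was not tested. In bulk tissue a lower value may come from fewer cells of a type or from less RNA per cell, and these cannot be told apart.

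**Figure D3:**
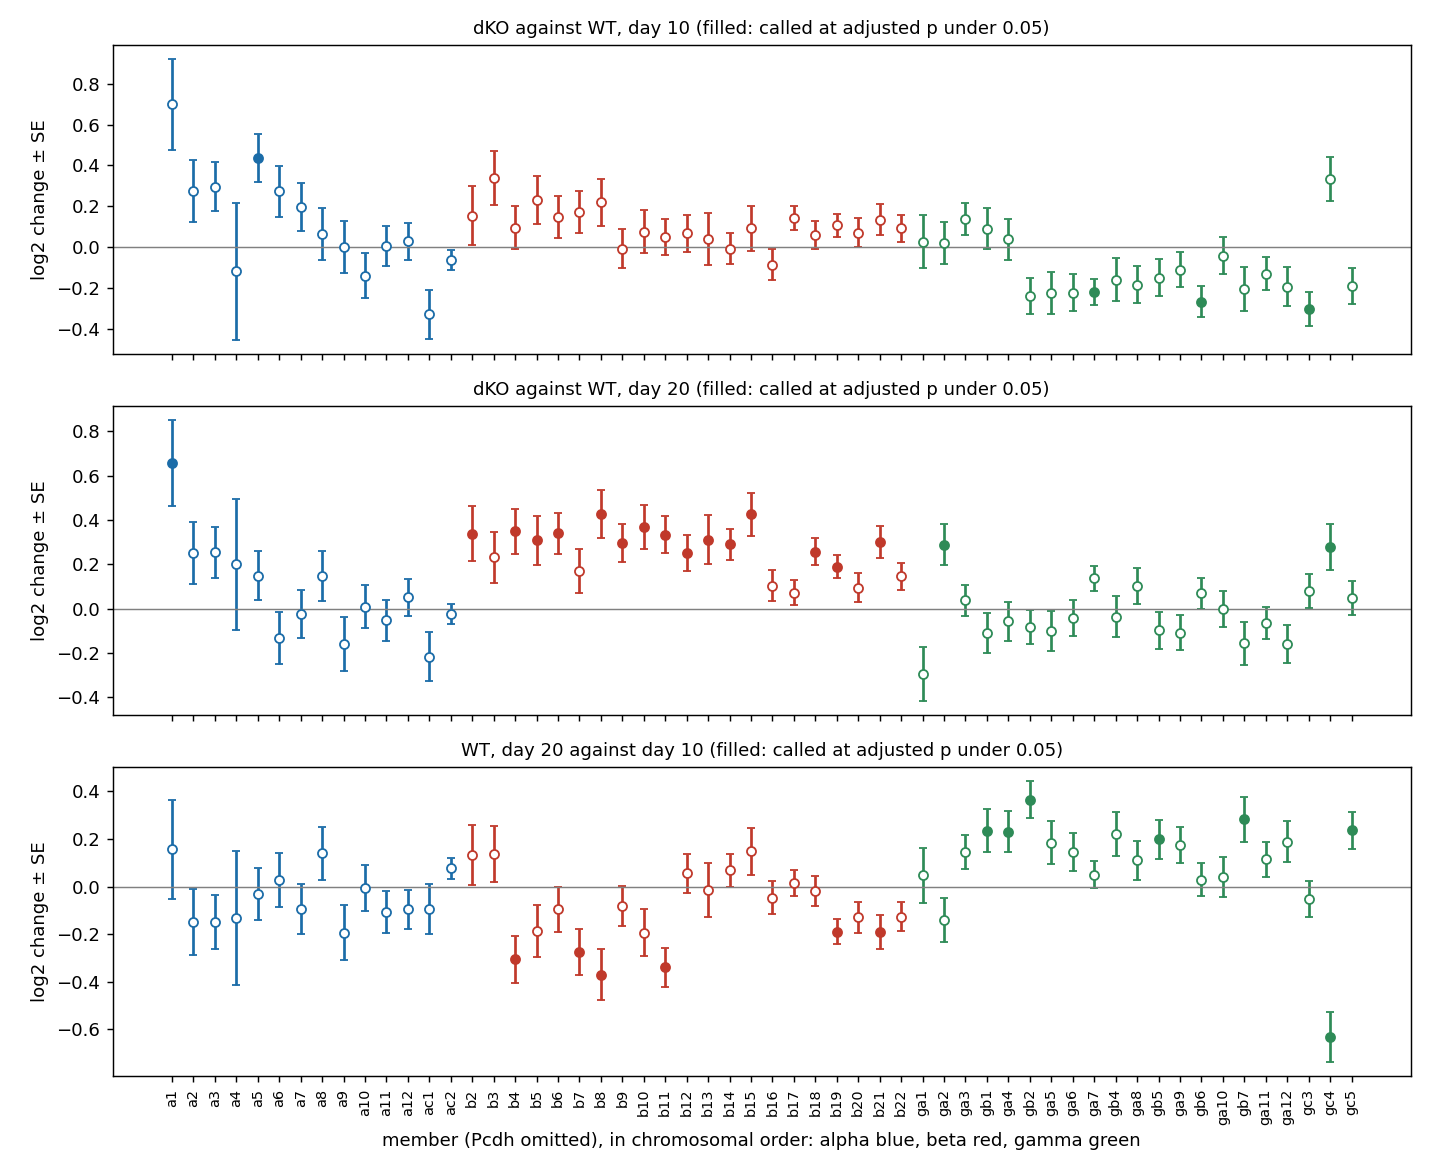
Log2 change with its SE for each tested member in chromosomal order (alpha blue, beta red, gamma green) for dKO against WT at day 10 and at day 20 and for WT day 20 against day 10; filled points are called. At day 20 the beta points lie between 0.07 and 0.43, and in WT development Pcdhgc4 lies at -0.63.

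The day 20 comparison was also made in each sex. In males 17 members rose and 0 fell, 14 of them in the beta cluster and 3 in the gamma cluster, where 17.8% of all genes were called higher and 17.5% lower. In females 1 member rose, Pcdha1, and 0 fell, where 5.32% of all genes were called higher and 5.37% lower. The median beta log2 change was 0.40 in males and 0.16 in females, with 21 of 21 and 20 of 21 members above 0. In females 0 beta members were called by edgeR, DESeq2 or limma-voom, with 5 at an unadjusted p under 0.05 by edgeR.

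The beta sum was 233 to 264 CPM in WT males and 308 to 324 CPM in dKO males, a mean 24.4% higher. In females it was 256 to 268 CPM in WT and 277 to 292 CPM in dKO, a mean 10.0% higher. The gamma sum went opposite ways, with a mean 12.6% higher in dKO than WT males and a mean that was lower in dKO than in WT females (480 ± 42.7 CPM against 522 ± 10.2 CPM, SD, n = 3 each). The low mean in dKO females included replicate 1 at 431 CPM, beside 502.6 and 507 CPM in the others. The test of the difference itself, the genotype by sex interaction, called 0 of 21657 genes (0%) by edgeR, the 1 tool run on it, with 3282 genes and 16 of the 56 members at an unadjusted p under 0.05. A difference between the sexes was thus not shown for any member.

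Among single members, Pcdhb4 was at 5.55, 4.10 and 4.69 CPM in WT males and 7.02, 7.30 and 6.91 CPM in dKO males, a log2 change of 0.54 ± 0.14 (edgeR, adjusted p = 0.00466). Pcdhgb6 and Pcdhga7 were called in males, at 0.27 ± 0.10 (edgeR, adjusted p = 0.0334) and 0.27 ± 0.08 (edgeR, adjusted p = 0.0105), as was Pcdhgc4 at 0.44 ± 0.15 (edgeR, adjusted p = 0.0274). WT male replicate 2 had the lowest beta sum of the day 20 libraries. Without it 11 members were called in males. WT male replicates 2 and 3 also had the lowest gamma sums of the WT day 20 libraries, 452 and 455 CPM, and the highest shares of ambiguous reads, 0.959 and 1.05% against 0.703 to 0.800% in the other WT day 20 libraries; the part of this in the male result was not tested. The 1 call in females, Pcdha1 at 0.91 ± 0.28 (edgeR, adjusted p = 0.0409), was lost without dKO female replicate 1 or 2 or without any 1 of the WT females, which left 0 members called. In females 2 members were called without dKO female replicate 3 or WT male replicate 3, and 4 with only the groups compared in the fit.

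**Figure D4:**
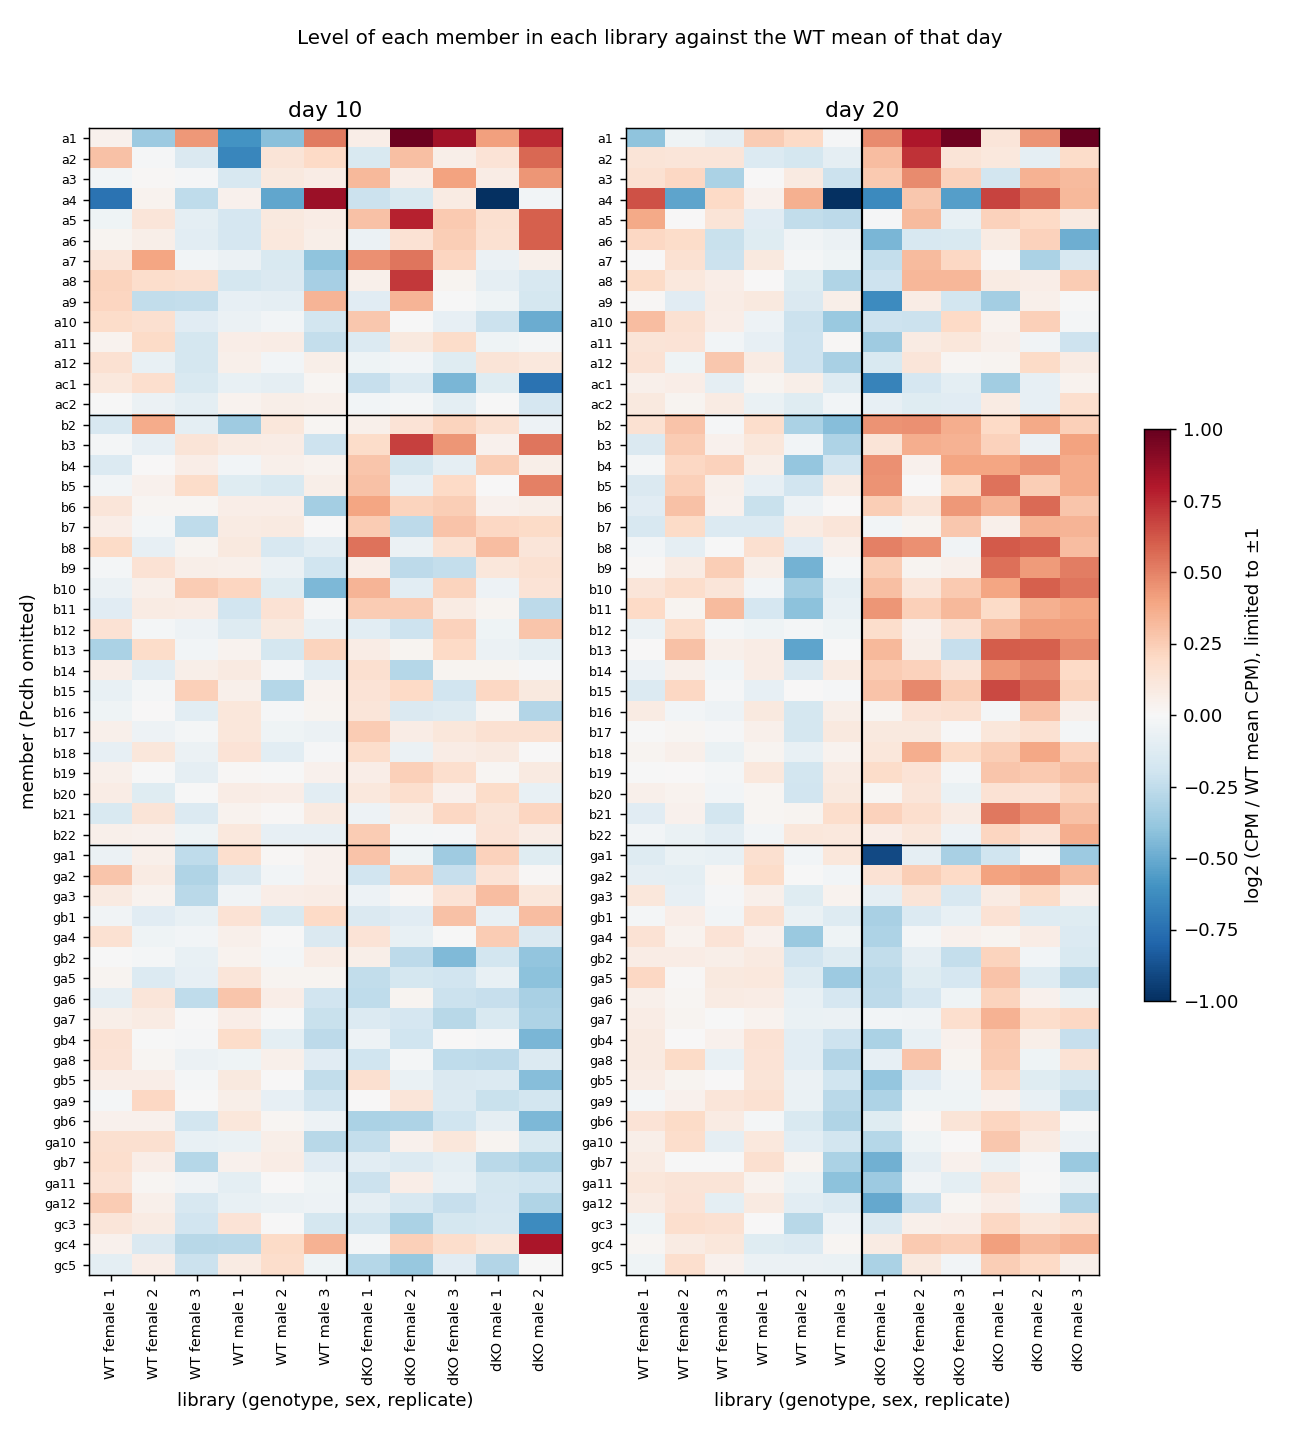
Log2 ratio of the level of each tested member (rows, in chromosomal order) to the WT mean of the same day in each library (columns), with black lines between clusters and genotypes; values beyond 1 or -1 are shown at the limit. In the day 20 panel the beta rows of dKO males are mostly red, and dKO female replicate 1, with a gamma sum of 431 CPM, is blue in most gamma rows.

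At day 10 fewer members were called than at day 20, and the calls depended on single libraries. Called members were 1 higher, Pcdha5, and 3 lower, Pcdhga7, Pcdhgb6 and Pcdhgc3, where 3.89% of all genes were called higher and 1.91% lower. The gamma members had a median log2 change of -0.16, with 15 of 21 below 0, the beta members one of 0.09 with 18 of 21 above 0, and the alpha members one of 0.05. In the beta cluster 0 members were called by edgeR, DESeq2 or limma-voom, with 2 at an unadjusted p under 0.05 by edgeR. The gamma sum was 439, 499 and 518 CPM in WT and 450.3, 455, 454, 460 and 437 CPM in dKO (females 1 to 3, then males 1 and 2), which overlapped, and the beta sum 266, 272 and 284 CPM in WT and 309, 276, 289, 291 and 283 CPM in dKO, which also overlapped. Without dKO male replicate 2 the same fit called 0 members and 16 genes in all, and the medians were -0.14, 0.10 and 0.04. That fit tested 22 beta members, as Pcdhb1 passed its low-count filter. The count was also 0 without dKO female replicate 2 or 3, WT female replicate 1 or WT male replicate 1, 1 without WT female replicate 2 or WT male replicate 2, 7 without WT male replicate 3 and 11 without dKO male replicate 1.

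Pcdhgc3 was at 116, 136 and 146 CPM in WT and at 117, 106, 117, 119 and 85.7 CPM in the 5 dKO libraries. The lowest value was that of male replicate 2. The log2 change was -0.30 ± 0.08 (edgeR, adjusted p = 0.0379), and -0.21 ± 0.08 without that library (adjusted p = 0.338). Pcdhgb6 was at 20.1, 23.4 and 24.8 CPM in WT and 18.4, 18.5, 19.9, 21.5 and 16.8 CPM in dKO, a log2 change of -0.27 ± 0.08 (edgeR, adjusted p = 0.0439), and -0.20 without the library. Pcdhga7 was at 19.0, 22.5 and 23.4 CPM in WT and 20.1, 19.6, 18.3, 19.9 and 17.9 CPM in dKO, a log2 change of -0.22 ± 0.06 (edgeR, adjusted p = 0.0453), and -0.20 without it.

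Pcdha5 was at 4.78, 5.44 and 5.83 CPM in WT and 6.58, 9.14, 6.45, 6.01 and 8.15 CPM in dKO. The 5 dKO libraries lay above the 6 WT libraries. Pcdha5 rose by 0.43 ± 0.12 (edgeR, adjusted p = 0.0357), and 0.30 ± 0.13 without male replicate 2 (adjusted p = 0.379). Pcdhgc4 was at 43.5, 50.9 and 66.9 CPM in WT and 52.0, 62.3, 59.3, 57.1 and 92.6 CPM in dKO. The highest value was again male replicate 2, and the log2 change went from 0.33 ± 0.11 to 0.13 ± 0.09 without it. Within each sex at day 10, where the dKO males are 2 libraries and 1 of them is the library that stands apart, 0 members were called by edgeR, where 0.591% of all genes were called in females and 0.0139% in males, and 6 members in females and 10 in males had an unadjusted p under 0.05.

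The genotype by day interaction asks whether the dKO difference changed between the days. It was called for 4 members, each with a change that was more positive at day 20, where 13.8% of all genes were called in this direction and 14.9% in the other. Pcdhgc3 went from -0.30 at day 10 to 0.08 at day 20, a difference of 0.38 ± 0.11 (edgeR, adjusted p = 0.0153). For Pcdhga7 the difference was 0.35 ± 0.09 (edgeR, adjusted p = 0.00369), for Pcdhgb6 0.33 ± 0.10 (edgeR, adjusted p = 0.0185) and for Pcdhb14 0.30 ± 0.10 (edgeR, adjusted p = 0.0322). Without dKO male day 10 replicate 2 the differences were 0.29, 0.33, 0.27 and 0.31, and 2 members, Pcdhgc3 and Pcdhga7, were called. Without dKO male day 10 replicate 1 there were 7. The beta members had a median difference of 0.19, and 1 of 21 was called. In the alpha cluster 0 of 14 were called by edgeR, DESeq2 or limma-voom, with 1 at an unadjusted p under 0.05 by edgeR.

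WT day 20 was compared with WT day 10 to describe development. Of all genes 26.1% were called higher and 25.3% lower, and of the 56 members 6 rose and 7 fell. The 6 that rose were gamma members, and of the 7 that fell 6 were beta members and 1 was Pcdhgc4. Of the 6 gamma B members 4 were called higher, and their median log2 change was 0.23. Leaving out single libraries gave 1 to 5 of them higher, and counting both strands gave 1. In the alpha cluster 0 of 14 were called by edgeR, DESeq2 or limma-voom, with 0 at an unadjusted p under 0.05 by edgeR. Summed immature neuron markers in WT were 1631 to 2400 CPM at day 10 and 783 to 880 CPM at day 20. Oligodendrocyte markers were 6672 to 13066 CPM and 16062 to 20848 CPM, while granule and Purkinje cell markers overlapped between the days. The part of these shifts in the member changes was not tested.

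Pcdhgc4 had the greatest change among the tested members, from 43.5, 50.9 and 66.9 CPM at day 10 to 30.7, 34.2 and 36.4 CPM at day 20, with no overlap, a log2 change of -0.63 ± 0.10 (edgeR, adjusted p = 3.89e-05). Among the other C-type genes of the cluster, Pcdhgc5 rose from 11.2, 13.1 and 14.6 CPM to 14.6, 14.8 and 17.1 CPM (0.24 ± 0.08, edgeR, adjusted p = 0.0139), and Pcdhgc3 was at -0.05 ± 0.08 (adjusted p = 0.602). Pcdhgb2 rose from 12.5, 13.1 and 13.9 CPM to 14.8, 17.7 and 18.0 CPM, again without overlap, by 0.37 ± 0.08 (edgeR, adjusted p = 0.000489). Pcdhgb7, Pcdhgb1 and Pcdhga4 rose by 0.28, 0.23 and 0.23.

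Of the beta members that fell in WT, Pcdhb8 fell by 0.37, Pcdhb11 by 0.34, Pcdhb4 by 0.31, Pcdhb7 by 0.27, Pcdhb21 by 0.19 and Pcdhb19 by 0.19 on the log2 scale. Pcdhb19, which has the highest level per length of these, was at 30.5, 32.5 and 33.6 CPM at day 10 and 25.0, 28.4 and 30.5 CPM at day 20. At day 20 dKO stood at 28.0, 33.1 and 35.1 CPM. Pcdhb11 was at 12.1, 14.1 and 15.2 CPM in WT at day 10, beside 8.20, 10.7 and 13.6 CPM in WT and 12.5, 13.8 and 14.8 CPM in dKO at day 20. Both comparisons use the same WT day 20 libraries, so the values are set side by side with no test. The WT counts rested in part on single libraries: without WT male day 20 replicate 1 the called members were 7, and without WT female day 20 replicate 1 they were 8. Members that rose were 2 without WT female day 10 replicate 3 or WT male day 20 replicate 1, and 3 without WT male day 10 replicate 2 or WT female day 20 replicate 1. With both strands counted 3 members rose. In WT males against WT females 0 members were called by edgeR, where 0.0693% of all genes were called, and 4 had an unadjusted p under 0.05.

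Counts on the opposite strand differed by cluster. Summed over the 23 libraries they were 0.141% of the sense counts in the beta cluster, 1.35% in the gamma cluster and 4.81% in the alpha cluster, where all genes together gave 6.01%. In the alpha cluster they were high at the 5' members, with 28.9% at Pcdha1, 19.2% at Pcdha3, 58.6% at Pcdha4 and 13.4% at Pcdha5. At Pcdha12, near the 3' end, they were 0.987%. Pcdha4 has 494 bases of exon of its own, and its value rests on 278 sense counts. In the gamma cluster Pcdhgb7 gave 7.81%. The alpha sum on the opposite strand was 4.32 to 6.34 CPM in WT and 5.48 to 7.20 CPM in dKO at day 20, with overlap. Antisense RNA is known to start within the variable exons of the alpha cluster, where it takes part in promoter choice. The annotated minus-strand gene Gm38225 lies at the start of Pcdha4, and Gm26672 spans the start of Pcdhgb7. The source of the opposite-strand counts was not tested. The beta sum on that strand was 0.323 to 0.618 CPM in WT and 0.263 to 0.988 CPM in dKO at day 20.

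**Figure D5:**
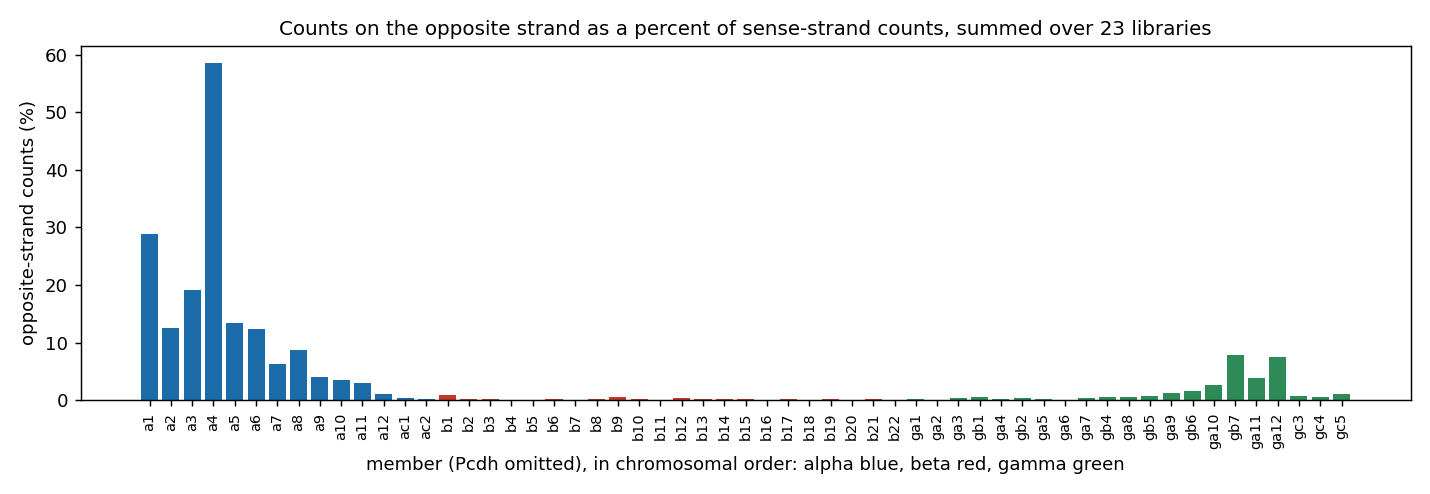
Counts on the strand opposite to each member as a percent of its sense counts, summed over 23 libraries, in chromosomal order (alpha blue, beta red, gamma green). Values reach 58.6% at Pcdha4 and 28.9% at Pcdha1 and are lower at the 3' end of the alpha cluster, and the beta cluster as a whole stands at 0.141%.

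Genes of the machinery around the family were counted from lists. Of 26 genes for CTCF, cohesin and the chromatin regulators that act on protocadherin promoters, 9 rose and 4 fell in dKO at day 20, with a median log2 change of 0.09, where 19.4% of all genes were called higher and 19.5% lower. The number that rose was above the share of all genes. The number that fell is near that background and is no result about the list. Tet2, which oxidises methylcytosine, rose by 0.73 ± 0.06, Mau2, a cohesin loader subunit, by 0.43 ± 0.04, Lrif1, a partner of the silencing protein SMCHD1, by 0.39 ± 0.06 and Ehmt2, a histone H3 lysine methyltransferase, by 0.35 ± 0.07 (edgeR, adjusted p = 0.000225 for the last). Of 24 genes listed as partners, signalling proteins or processing enzymes around clustered protocadherins, 5 rose and 7 fell at day 20, with a median log2 change of 0.00. Against 19.4% and 19.5% of all genes, the number that rose is near the background and is no result about the list. Called genes of the list included Cyfip2, a WAVE complex subunit, at 0.23 ± 0.04, Ncstn, a gamma-secretase subunit, at 0.25 ± 0.05, Marcks at -0.33 ± 0.06 and Brk1, also of the WAVE complex, at -0.23 ± 0.04.

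Of the 12 protocadherin genes outside the clusters 0 rose and 4 fell at day 20, with a median log2 change of -0.11, where 19.4% of all genes were called higher and 19.5% lower. At day 10 the same list had 7 higher and 0 lower and a median of 0.40, where 3.89% of all genes were called higher. The summed level of these genes was 2524 CPM in dKO male day 10 replicate 2 against 1304 to 1850 CPM in the other day 10 libraries. The other dKO day 10 libraries, at 1619.5, 1776.8, 1683.1 and 1710.4 CPM, lay inside the WT range. Without dKO male day 10 replicate 2 the fit called 16 genes in all at day 10, and the count for this list in that fit was not taken. The genotype by day test, which includes the same library, called 0 of the 12 higher and 9 lower, against 14.9% of all genes lower. At day 20 Pcdh9 fell by 0.43, Pcdh20 by 0.33, Pcdh18 by 0.57 and Pcdh12, an endothelial protocadherin, by 1.84 on the log2 scale. Of the 18 classical cadherins 1 rose, Cdh18 at 0.18, and 5 fell, among them Cdh20 by 0.58, Cdh11 by 0.69 and the endothelial Cdh5 by 0.42, against the same 19.4% and 19.5% of all genes. No test compared these lists with the beta cluster.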

How the data were processed

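RNA from 24 libraries was analysed. The authors deposited raw gene counts for each library. Per the submitters' processing notes, STAR 2.5.2b, HTSeq and GRCm38.p5 were used; which did what, and which annotation was counted, is not stated there. Libraries were TruSeq Stranded mRNA, per the labels. The reverse-strand counts (column 4) were used. No source states how reads in exons shared by several genes were counted; an entry for ambiguous reads in the files is in keeping with leaving them out, in which case alpha and gamma values rest on each gene's own exons. Entries naming no gene were left out of library sizes; in 23 libraries no-feature reads were 41.7 to 47.5% and ambiguous reads 0.589 to 1.05% of reads. GENCODE M21 matched 50462 gene identifiers and left 224 unmatched. Pcdha10, listed there as a further Pcdha11, was named by its RefSeq start.

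Tests used edgeR 4.0.16 in R 4.3.3: filterByExpr (21657 genes kept), TMM, glmQLFit (robust) with 1 mean per group over the 23 libraries, and two-sided glmQLFTest with Benjamini-Hochberg adjustment over all genes tested. Calls were made at an adjusted p under 0.05. Levels are CPM with TMM factors, and 1 count was 0.0224 to 0.109 CPM. On simulated data the day 20 contrast over 21657 genes recovered 64.2% of genes changed 1.5-fold, 82.1% of those changed 2-fold and 92.4% of those changed 4-fold, with 4 false among 163 calls. The day 10 contrast recovered 53.7% (1.5-fold), 74.6% (2-fold) and 93.9% (4-fold), and 6 of its 154 calls were false. Each simulation changed 200 genes, whereas 8412 genes were called at day 20 in the data. The recovered shares may therefore not carry over to the data.

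Members and gene lists were chosen with earlier results of these data known. Members were named by a rule: the 5 C-type genes, for each of 4 contrasts and each cluster up to 5 called members in each direction by p, and the 3 highest and 3 lowest members of each cluster per length. From each other list it took up to 4 called genes by p at day 20. Alternatives were RLE size factors, CPM without TMM factors for the sums, 2 other low-count filters, unstranded counts, the older edgeR dispersion method, tests by DESeq2 1.42.0 and by limma-voom (limma 3.58.1), all 24 libraries, only the groups compared, and each library left out in turn. The same alternatives for the separate sexes at day 20 were added after seeing the data.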

Additional observations from a re-analysis of the deposited data

Results flagged for a closer look

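Of 144 group values of 4 to 10 libraries examined, 9 had 1 library far from the rest, and about 1 in 20 would by chance. The alpha sum was 139 CPM in dKO female day 10 replicate 2, above the other dKO day 10 libraries, and 107 CPM in dKO female day 20 replicate 1, below the other dKO day 20 libraries. The beta sum was 232.8 CPM in WT male day 20 replicate 2, where the next WT library was at 256 CPM. Pcdhgc4 was at 92.6 CPM in dKO male day 10 replicate 2, the library that stood apart in its marker genes. Pcdhga7 was at 18.98 CPM and Pcdha4 at 1.03 CPM in WT male day 10 replicate 3. Pcdhb4 was at 5.51 CPM in dKO female day 20 replicate 2. Pcdhb7 was at 8.43 CPM in WT female day 10 replicate 3 and at 8.37 CPM in dKO female day 10 replicate 2.

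The dKO difference itself differed between the days for 4 members by the genotype by day test. The log2 difference, day 20 minus day 10, was 0.298 for Pcdhb14, 0.355 for Pcdhga7, 0.335 for Pcdhgb6 and 0.380 for Pcdhgc3.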

How the results depend on the processing

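Of 32 called results of the members covered by the naming rule in the 4 main contrasts, 19 kept their call in every alternative run, 13 lost it in at least 1 and 0 reversed; calls of other members were followed as counts only. Among these, at day 20 the calls of Pcdha1, Pcdhb4, Pcdhb8, Pcdhb11, Pcdhb14, Pcdhb15, Pcdhb18, Pcdhb19, Pcdhb21 and Pcdhga2 were kept throughout, and those of Pcdhgc4 and Pcdhb2 were not. Without the low-count filter members called fell to 0 at day 10 (0 lower; 607 genes in all) and to 11 in males at day 20. With only the groups compared in the fit they were 0 at day 10 (0 lower; 6 genes in all) and 4 in females at day 20. DESeq2 called 2105 genes at day 10. With unstranded counts 3 members rose in WT development. The cause was not tested. Leaving out single libraries gave the following ranges: 0 to 11 members at day 10 (0 to 5 lower; 16 to 4649 genes in all), 14 to 20 members at day 20 (12 to 16 beta members; 7312 to 9033 genes), 2 to 7 members for the genotype by day test (4864 to 7346 genes), 7 to 17 members in WT development (2 to 9 higher, 5 to 8 lower; 10251 to 11619 genes), 0 to 2 members in females at day 20 and 11 to 19 in males. No paired analysis was possible because the labels carry no replicate numbers that link libraries across groups. Low counts limit Pcdhb1, Pcdha4 and Pcdha1, and Pcdha4 has only 494 bases of exon of its own. Variable exons lie at the 5' end of alpha and gamma transcripts. Differences of 1.5-fold were recovered in part on simulated data, and smaller ones were not simulated.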

Other observations

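The minus strand around the clusters carries 12 annotated noncoding genes, of which 5 passed the low-count filter. Gm29994 lies within the span shared by all gamma members, downstream of the start of Pcdhgc5. It was at 0.0716, 0.157 and 0.225 CPM (lowest, median and highest) in WT at day 20. In dKO it was at 0.263, 0.648 and 0.860 CPM, with no overlap and few counts per library. The log2 change was 1.88 ± 0.32 (edgeR, adjusted p = 3.77e-05). BC037039, which overlaps the start of Pcdhgc3 on the minus strand, fell by 0.64 ± 0.20 on the log2 scale between day 10 and day 20 in WT (edgeR, adjusted p = 0.00898), and Gm10545 in the alpha cluster fell by 0.60 ± 0.19 (edgeR, adjusted p = 0.0116).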
